A study of Caenorhabditis elegans with 2 samples.

Results

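A set of 6 chaperone genes of Caenorhabditis elegans was examined for binding of the zinc finger protein ZTF-6 (C2H2 type), out of 19973 protein-coding genes on the nuclear chromosomes. They are hsp-1 and hsp-90 of the cytosol, hsp-3 and hsp-4 of the endoplasmic reticulum (ER), and hsp-6 and hsp-60 of mitochondria. The members were chosen by gene name with earlier peak values of these data known, and every summit within 1000 bp of one of their annotated transcript starts was then taken. Presence of a peak and its signal are therefore a description of these genes, given with no test. The RefSeq product names of all members are those of heat shock proteins, chaperonins or the ER chaperone BiP, as the grouping says.

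The samples were 2 biological replicates of whole young adults aged 62 hours, of strain RW12301. Both carried the allele st12301[ztf-6::TY1::EGFP::3xFLAG] at the ztf-6 locus, made with CRISPR, and came from cultures synchronised by starving first-stage larvae after bleaching. Binding was measured by chromatin immunoprecipitation and sequencing (ChIP-seq) with an antibody against GFP, on chromatin sonicated to 200 to 800 bp. There was 1 group, 1 tagged strain and no second condition. Values therefore describe the tagged protein averaged over all tissues of the animal, and the tissue label was not checked, since peak lists hold no expression.

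Hsp70 proteins bind exposed hydrophobic stretches of unfolded proteins and release them in a cycle driven by ATP, helped by J-domain partners. Hsp90 acts later, on nearly folded clients such as kinases and hormone receptors, and Hsp60 forms a barrel that Hsp10 closes as a lid. Some members are made at all times and others are induced by stress: in worms hsp-4 is a standard reporter of the unfolded protein response of the ER, and hsp-6 and hsp-60 are reporters of the mitochondrial response. The cytosolic heat shock response acts through HSF-1, which binds inverted repeats of GAA, and the ER response acts through XBP-1 and ATF-6.

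In the authors' conservative list, which holds 551 reproducible peaks from both replicates, 4 of the 6 genes carried a peak: hsp-1, hsp-3, hsp-90 and hsp-60. The same held for 434 protein-coding genes, or 2.17% of all. The 4 genes had 5 peaks, since hsp-90 had a pair of them, a feature of 19 protein-coding genes (0.0951%). Its neighbour C47E8.4 was another of the 19, through the same pair. The second thresholded list of 605 peaks added hsp-6, for 5 of 6 against 2.27% of all genes. In the thresholded list of replicate 1 (215 peaks) 3 members had a peak, hsp-1, hsp-3 and hsp-90, against 0.936% of genes. In that of replicate 2 (253 peaks) 2 members had one, hsp-1 and hsp-3, against 0.981%. No thresholded list held a peak for hsp-4. Since the members were picked with these peaks known, their counts say nothing beyond which genes carry a peak.

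The DNA under the summits is shown for the 5 peaks in the conservative list, for the hsp-6 site that only the second list held, and for the strongest site at hsp-4, which no thresholded list held, as a contrast. Each line gives the 141 bases around the summit, 5′ to 3′ on the strand of the named gene, read from RefSeq WBcel235 at ce11 positions. Capitals mark matches to the words searched: GAANNTTC and TTCNNGAA (paired heat shock units), TGACGTG (the core of the unfolded protein response element), CCACG (one part of the ER stress element), CCAAT and CTGCGTC, in either direction.
hsp-1, upstream, chrIV:17278514-17278654, plus strand: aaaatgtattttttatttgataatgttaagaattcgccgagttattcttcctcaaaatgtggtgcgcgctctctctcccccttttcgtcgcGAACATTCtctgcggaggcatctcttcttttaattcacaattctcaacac
hsp-90, upstream of the downstream start, chrV:14685743-14685883, plus strand: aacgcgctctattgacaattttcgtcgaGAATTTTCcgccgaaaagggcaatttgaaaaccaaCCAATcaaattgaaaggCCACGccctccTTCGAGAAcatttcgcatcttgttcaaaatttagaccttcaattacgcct
hsp-90, second coding exon of the shorter transcript, chrV:14686404-14686544, plus strand: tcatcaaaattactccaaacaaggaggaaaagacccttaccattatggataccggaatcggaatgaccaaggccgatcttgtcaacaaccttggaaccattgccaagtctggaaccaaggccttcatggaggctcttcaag
hsp-3, upstream, chrX:6092129-6092269, minus strand: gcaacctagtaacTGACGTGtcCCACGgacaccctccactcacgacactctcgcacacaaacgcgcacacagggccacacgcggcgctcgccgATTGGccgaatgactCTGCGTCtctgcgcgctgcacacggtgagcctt
hsp-4, upstream, chrII:7353213-7353353, minus strand: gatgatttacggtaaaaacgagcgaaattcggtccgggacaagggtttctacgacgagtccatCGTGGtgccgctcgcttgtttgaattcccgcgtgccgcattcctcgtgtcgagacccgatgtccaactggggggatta
hsp-60, upstream, chrIII:1619058-1619198, plus strand: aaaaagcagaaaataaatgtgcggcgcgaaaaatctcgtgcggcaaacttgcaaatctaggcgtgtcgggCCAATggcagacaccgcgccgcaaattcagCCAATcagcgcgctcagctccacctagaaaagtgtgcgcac
hsp-6, upstream, chrV:4827103-4827243, minus strand: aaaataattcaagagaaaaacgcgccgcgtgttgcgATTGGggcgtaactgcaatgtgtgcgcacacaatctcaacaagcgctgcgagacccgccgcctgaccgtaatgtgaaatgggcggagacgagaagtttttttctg

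The windows differed in composition. GC content was 39.7% at hsp-1, 41.8% at the upstream hsp-90 site, 46.1% at the coding hsp-90 site, 53.2% at hsp-60 and 63.1% at hsp-3. Over all 551 conservative peaks the median was 49.6%, with quartiles of 44.7% and 53.9%. Thus hsp-1 and the upstream hsp-90 site lay below the lower quartile and hsp-3 above the upper one. The windows at hsp-6 and hsp-4 had 51.1% and 54.6%. None of the 92 pieces of 50 bases in any of the 7 windows occurred elsewhere in the nuclear genome.

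Paired heat shock units lay in the windows of the cytosolic members. GAANNTTC was found at hsp-1, 21 to 28 bases past the summit in the direction of the gene, and at the upstream hsp-90 site, 35 to 42 bases before it. The hsp-90 site also held TTCNNGAA, 21 to 28 bases past the summit. Among the windows of all 551 conservative peaks, 7.80% held GAANNTTC and 6.35% held TTCNNGAA. The windows at the ER and mitochondrial members and the coding site of hsp-90 held neither word. In the 250 bases before and 50 after the most upstream start of each gene, hsp-1, hsp-90 and hsp-4 each held both words, which occur in 18.5% and 18.9% of 19973 such promoters. A match is a stretch of letters only and does not show that a factor binds.

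The ER stress words lay at hsp-3. Its window held TGACGTG, 51 to 57 bases before the summit, followed by CCACG 44 to 48 bases before it. TGACGTG was in 1.63% of the 551 windows and in 2.93% of promoters. Among the members' promoter windows it was in those of hsp-3 and hsp-4, the BiP genes. CCACG also lay in the upstream hsp-90 window and in the hsp-4 window, and was in 32.3% of the windows of all peaks. CCAAT was in the windows of hsp-3, hsp-6, hsp-60 and upstream hsp-90 (4 of 7). It was in 21.4% of the windows of all conservative peaks, which do not include hsp-6, and in 45.5% of promoters, which are longer stretches. The hsp-60 window held a pair of copies, the first starting at the summit base. CTGCGTC was in the hsp-3 window alone of the 7 and in 8.89% of all peak windows. GATAAG (3.27% of peak windows), TTGCATCA (0.363%) and a run of 8 T (4.17%) were in none of the 7. Of all 6-base words, counted without a prior list, 7 were in 4 of the 7 windows. The rarest of these over all peak windows was CCAATC (3.99%) and the most frequent GAGCGC (16.9%). CCAATC contains CCAAT and lay in the same 4 windows, so it is not a separate result. How many words 4 of 7 windows would share by chance was not tested.

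hsp-1 encodes the constitutive cytosolic Hsp70 and had the highest signal of the members (WBGene00002005, chromosome IV, 17278959 to 17281330, plus strand). Its peak (17278444 to 17278723) had a signal of 162.2 on the authors' scale, rank 36 of 551 in the conservative list. The summit lay 375 bp upstream of the single annotated start, outside any annotated transcript and 171 bp downstream of the start of the short ncRNA gene F26D10.23. The signal was 68.8 in replicate 1 and 87.1 in replicate 2, ranks 99 of 44606 and 79 of 51197 in their unthresholded, or ranked, lists. Replicate summits were 28 bp apart. The irreproducible discovery rate (IDR), which is low where a peak ranks both high and alike in repeated lists, was 0.000125 for both replicates together.

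hsp-90 encodes the cytosolic Hsp90 (WBGene00000915, chromosome V, 14684918 to 14688545, plus strand) and carried 2 conservative peaks, on each side of a start. Of its 2 annotated starts, the peaks lay near the downstream one, at 14686160. The upstream peak (14685673 to 14685952) had a signal of 93.1, rank 195 of 551, with its summit 347 bp before that start, within the first intron of the longer transcript. The same summit lay 328 bp upstream of C47E8.4, a FAM50 homolog on the opposite strand. The second peak (14686334 to 14686613) had a signal of 81.2, rank 331 of 551, with its summit 314 bp past the start, in coding sequence. That summit lay 989 bp upstream of C47E8.4, so both peaks are also credited to C47E8.4. The annotated hsp-90 and C47E8.4 genes overlap.

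Both hsp-90 sites stood higher in replicate 1 than in replicate 2. The upstream site had signals of 55.1 (rank 178) and 36.97 (rank 824), and the coding site 54.3 (rank 184) and 31.3 (rank 1809). Each passed the threshold in replicate 1 and neither did in replicate 2, where the IDR was 0.0329 and 0.172. The summits of the replicates were 21 and 33 bp apart at the 2 sites. A further summit 803 bp downstream of the same start had a signal of 45.3 and an IDR of 0.507 in the ranked list of both replicates.

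hsp-3 encodes a BiP, the Hsp70 of the ER lumen (WBGene00002007, chromosome X, 6089028 to 6092124, minus strand). Its peak (6092059 to 6092338) had the second highest signal of the members, 128.3, rank 84 of 551. Its summit was also the closest to a start, 75 bp upstream of the most distal of 3 annotated starts, and no other gene had a start within 1000 bp. Replicate 1 gave 81.7 (rank 58) and replicate 2 gave 48.5 (rank 334). Both were thresholded, with an IDR of 0.000126 and 0.00734, and the summits were 8 bp apart.

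hsp-4 encodes the other BiP, and its site differed between the replicates (WBGene00002008, chromosome II, 7350112 to 7352645, minus strand). The strongest summit within 1000 bp lay 638 bp upstream and had a signal of 53.2, rank 1928 of 74251 in the ranked list behind the conservative one, with an IDR of 0.658. In the other ranked list its IDR was 0.0763, and it was kept in neither thresholded list. Replicate 1 gave 35.8 at that site (rank 794) and replicate 2 gave 14.2 (rank 33474). In replicate 2 the highest summit near hsp-4 was instead 415 bp downstream of the innermost of its 3 starts, at 7351329, with a signal of 21.6. The coding sequences of hsp-3 and hsp-4 were 78.1% identical over 1967 aligned bases, the closest pair among the 4 Hsp70 members, for which the other pairs ranged from 66.2% to 71.9%. The nearest conservative peak to hsp-4 was 126299 bp away.

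hsp-60 encodes the mitochondrial chaperonin and shared its peak with the gene of its partner (WBGene00002025, chromosome III, 1619742 to 1625803, plus strand). The peak (1618988 to 1619267) had a signal of 81.6, rank 325 of 551, with its summit 614 bp upstream of hsp-60. The same summit lay 199 bp upstream of Y22D7AL.10, on the opposite strand, which RefSeq names as the mitochondrial 10 kDa heat shock protein. The 2 genes point away from each other with 812 bases between them, and the summit lay in that stretch. The signal was 36.7 in replicate 1 (rank 709) and 41.8 in replicate 2 (rank 534), with summits 74 bp apart. Neither replicate passed its own threshold, at an IDR of 0.501 and 0.323, while the value for both together was 0.00368.

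hsp-6 encodes the mitochondrial Hsp70 (WBGene00002010, chromosome V, 4824124 to 4826760, minus strand) and was not in the conservative list. Its peak (4827033 to 4827312) had a signal of 74.4, an IDR-scaled score of 636 and an IDR of 0.0294 in the ranked list behind that list, where the lowest score kept was 830. In the other ranked list its IDR was 0.00677 and its score 900, and it was kept. The summit lay 413 bp upstream of hsp-6 and 187 bp upstream of C37H5.5, a homolog of nucleolar complex protein 3 on the opposite strand, with 599 bases between the genes. It also lay within the overlapping ncRNA genes C37H5.15 and C37H5.16. Replicate 1 gave 43.04 (rank 385) and replicate 2 gave 25.1 (rank 5751), with summits 72 bp apart.

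**Figure D1:**
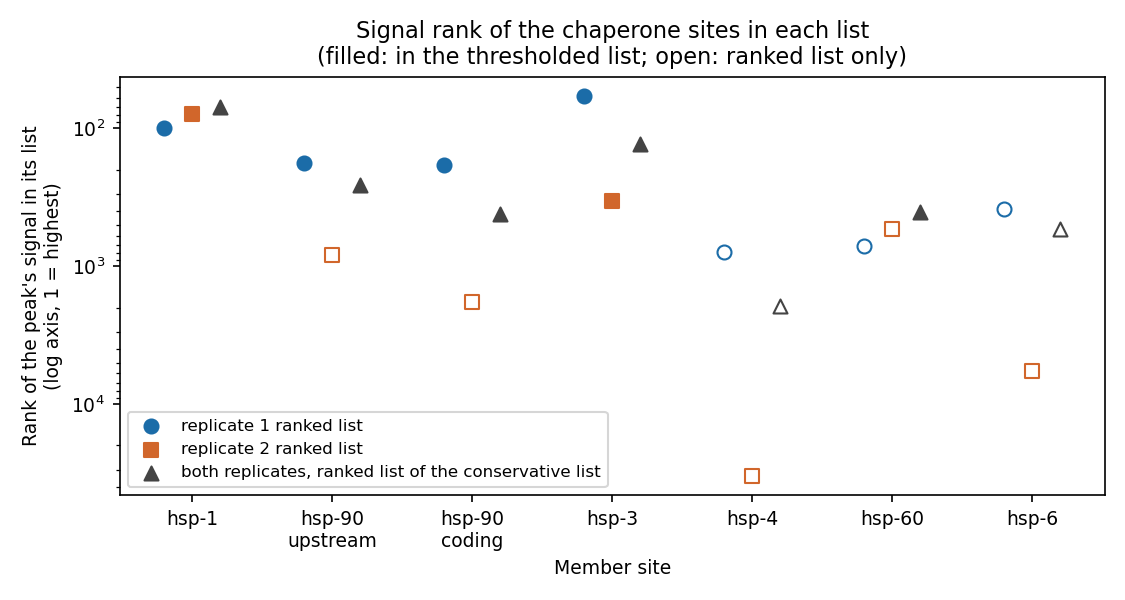
Rank of the authors' signal at each of the 7 chaperone sites in the ranked lists of replicate 1 (44606 peaks), replicate 2 (51197) and both together (74251), on a log axis with 1 as the highest. Filled symbols were in the matching thresholded list: hsp-1 and hsp-3 are filled in all 3, hsp-4 and hsp-6 in none.

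By signal in the lists of both replicates, the order was hsp-1, hsp-3, hsp-90, hsp-60, hsp-6 and hsp-4. Replicate 1 gave hsp-3, hsp-1, hsp-90, hsp-6, hsp-60 and hsp-4, and replicate 2 gave hsp-1, hsp-3, hsp-60, hsp-90, hsp-6 and hsp-4. As percentiles of their lists, the range of the 2 replicate values of every member overlapped that of its neighbour in the first of these orders. Compared within each replicate, hsp-3 stood above hsp-90 and hsp-6 above hsp-4 both times. The other neighbours changed places between the replicates. The ranges of hsp-1 (99.78 and 99.85) and hsp-90 (98.39 and 99.60) did not overlap. Of the 7 sites, 5 stood at a higher percentile in replicate 1 than in replicate 2, and hsp-1 and hsp-60 at a lower one. Among the 543 conservative peaks with a match in both ranked lists, 278 (51.2%) stood higher in replicate 1.

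The replicates placed the summits of hsp-3, hsp-90 upstream and hsp-4 within 21 bp of each other, and those of hsp-60 and hsp-6 more than 70 bp apart. Over the 543 peaks the median gap was 27 bp, with quartiles of 11 and 52 bp, so the hsp-60 and hsp-6 gaps were above the upper quartile. The gap in signal percentile was 0.068 at hsp-1, 0.522 at hsp-3, 0.546 at hsp-60, 1.21 at upstream hsp-90 and 3.12 at coding hsp-90, against a median of 0.578. It was 10.4 at hsp-6 and 63.6 at hsp-4, the 2 sites missing from the conservative list, where the upper quartile of the listed peaks was 1.43.

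By the authors' q-values, hsp-3 (0.0347) and upstream hsp-90 (0.048) were under 0.05 among the 5 conservative peaks. The others were 0.0504 at hsp-1, 0.056 at coding hsp-90 and 0.0575 at hsp-60. The hsp-6 site had 0.0732 and the hsp-4 site 0.455. The order by q was not that by signal, since hsp-1 had the highest signal and only the third smallest q.

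Measured from the nearest start, 4 of the 5 conservative summits lay upstream, at 75 to 614 bp, and 1 downstream. Of the 4, those at hsp-1, hsp-3 and hsp-60 lay outside the gene, and that at hsp-90 lay inside it, before the downstream start. Among all 454 pairs of a protein-coding gene and a conservative peak within 1000 bp, 80.8% were upstream. The farthest summit inside the limit of 1000 bp was that of hsp-60, at 614 bp. The nearest conservative summit outside it was 2442 bp from the hsp-1 start, with a signal of 72.6 (chromosome IV, 17281261 to 17281540), just past the 3′ end of the gene. The next was 14915 bp from hsp-60.

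**Figure D2:**
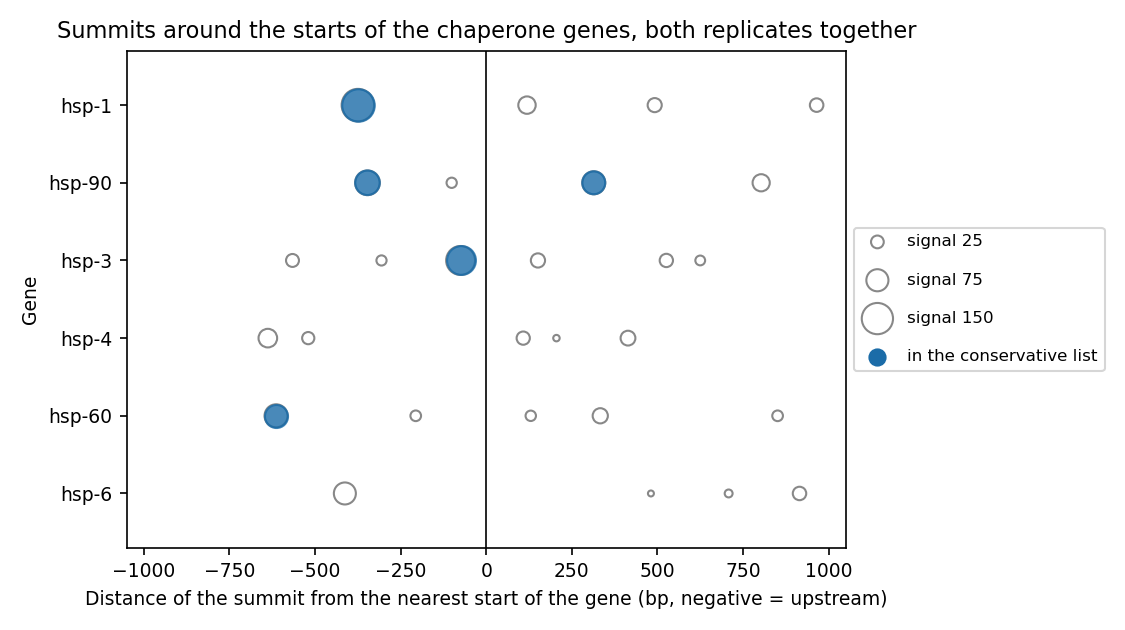
Summits within 1000 bp of a start of each member in the ranked list the conservative one came from, by distance in bp from the nearest start along the gene (negative is upstream), with circle area proportional to signal. The 5 filled circles are in the conservative list, and 4 of them lie upstream of the nearest start, which at hsp-90 is the downstream one.

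All 6 members had summits in the unthresholded ranked lists, as did most genes. The share of protein-coding genes with one was 78.3% in the list behind the conservative one, 79.8% in the other, 65.9% in replicate 1 and 70.7% in replicate 2. In the first of these lists the members had 28 summits, of which 21 were not among the 7 sites described. Those 21 had signals from 5.46 to 46.5, with a median of 25.7, close to the median of 24.1 over the list. The highest was 119 bp into hsp-1. The members' highest signals had a median of 87.3 (range 53.2 to 162.2), against 31.7 over the 15631 protein-coding genes with a summit. Since the members were chosen with peak values of these data known, this difference only describes them.

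**Figure D3:**
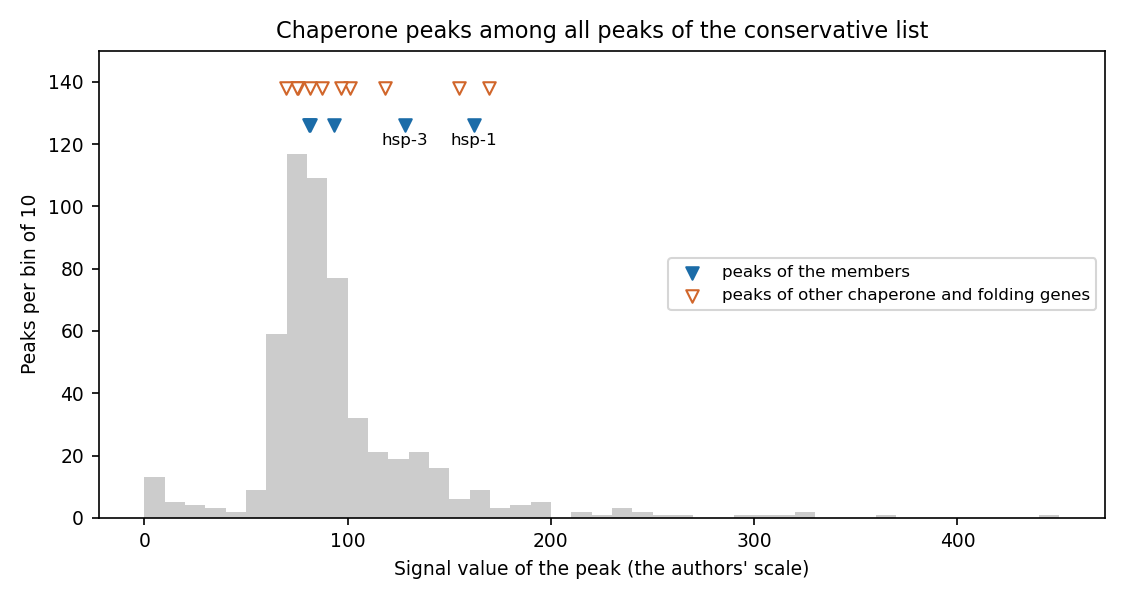
Signal of all 551 conservative peaks in bins of 10 (grey), with the 5 member peaks as filled markers and the 10 peaks of other chaperone and folding genes as open ones (1 of them is the hsp-60 peak), set above the bars at their signal. hsp-1 (162.2) and hsp-3 (128.3) lie in the upper tail, and the other 3 member peaks (81.2 to 93.1) near the median of 85.7.

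Other genes of the folding machinery were looked up from lists written by role. These lists were also chosen with earlier results of these data known, so their counts are a description. Of 81 names, 78 matched the annotation. In the conservative list 11 of the 78 (14.1%) had a summit within 1000 bp, with a median signal of 96.9 against 86.0 over all pairs of gene and peak. The counts were 13 in the second thresholded list, 5 in replicate 1 and 8 in replicate 2. The background shares are those given above for each list. One of the 11 was Y22D7AL.10, whose peak is that of hsp-60. F44E5.4 and F44E5.5 share the strongest peak, which entered the median once for each of them.

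The list of cytosolic Hsp70 and Hsp90 partners, which also holds further Hsp70 genes and hsf-1, had 5 of 20 in the conservative list. The strongest site lay between F44E5.4 and F44E5.5, a divergent pair of heat-inducible Hsp70 genes, with a signal of 169.5, above that of hsp-1. It lay 141 bp upstream of the first and 210 bp upstream of the second, and was thresholded in replicate 1 (88.6) and replicate 2 (78.2). The coding sequences of the pair were 100% identical, although no piece of 50 bases under the summit recurred in the genome. The others were ahsa-1, an activator of the Hsp90 ATPase (118.4, 217 bp upstream), dnj-19, a J-domain protein (101.03, 383 bp upstream), and bag-1, a nucleotide exchange factor of Hsp70 (96.9, 215 bp upstream). The ahsa-1 and dnj-19 peaks each lay nearer to the start of another protein-coding gene. The second list added hsp-110 (66.9, 241 bp upstream), an Hsp70 relative that also acts in nucleotide exchange.

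The cytosolic chaperonin and prefoldin list had 2 of 14, both subunits of the CCT ring: cct-8 (154.9, 417 bp upstream) and cct-7 (75.7, 310 bp upstream). cct-8 was thresholded in both replicates, at 74.99 and 68.99. The cct-8 and cct-7 peaks each lay nearer to the start of another protein-coding gene. The ER list had 2 of 18, atf-6 (87.6, 248 bp upstream) and xbp-1 (74.9, 11 bp downstream of a start), both transcription factors of the unfolded protein response. atf-6 was thresholded in replicate 1 (47.4) and xbp-1 in replicate 2 (38.8), each in that replicate alone. The second list added pdi-6, a protein disulfide isomerase (71.7, 15 bp downstream), which was also thresholded in replicate 2 (56.7). The mitochondrial list had 1 of 14, Y22D7AL.10, and none in either replicate. The small heat shock protein list had 1 of 12, hsp-12.3 (69.5), 931 bp downstream of a start, and none in either replicate. Another protein-coding gene had a start nearer to the hsp-12.3 summit.

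**Figure D4:**
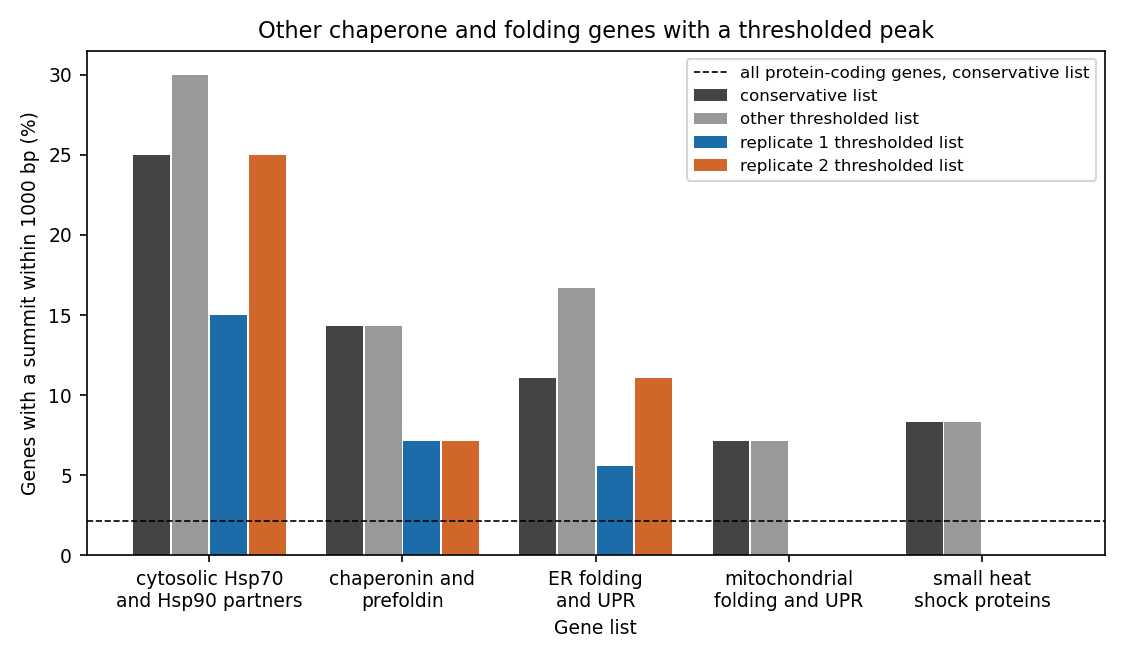
Share of genes with a summit within 1000 bp of a start (bars, percent) in 5 lists of chaperone and folding genes and the 4 thresholded lists, with the conservative background of 2.17% as a dashed line. The line applies to the conservative bars only. The share of all protein-coding genes was 2.27% in the second thresholded list, 0.936% in replicate 1 and 0.981% in replicate 2. ER is the endoplasmic reticulum and UPR the unfolded protein response. The bars rest on 12 to 20 genes each, and the mitochondrial and small heat shock lists have none in the single replicates.

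In the ranked list behind the conservative one, the highest signal per gene was compared between the gene lists. Its median was 53.3 for the list of Hsp70 and Hsp90 partners (19 of 20 genes with a summit). It was 43.3 for chaperonin and prefoldin genes, 43.2 for small heat shock genes, 38.2 for the mitochondrial list and 38.0 for the ER list. The members' lowest value, 53.2 at hsp-4, was close to the first of these medians.

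Among 426 protein-coding genes with a conservative peak and a summit in both replicates, those most like each member in its replicate signals were named by distance on the log2 scale over the 2 replicates. For hsp-1 these were ifet-1, a translational repressor gene, and the ribosomal protein gene rps-1, each at 0.127, which have the same values. For hsp-3 they were the cytochrome c oxidase gene cox-5B (0.132) and the ribosomal protein gene rpl-43 (0.147). For hsp-90 and hsp-60 the first was the divergent neighbour that shares the peak, C47E8.4 and Y22D7AL.10, at 0. The next were sas-4, a centriole assembly gene, for hsp-90 (0.0219) and pqn-51 for hsp-60 (0.0305). With 2 replicates, such closeness describes these values and no more.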

How the data were processed

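ZTF-6 ChIP-seq was analysed from the peak lists the authors deposited, on ce11 per the labels. Per the deposited file lists, peaks derive from filtered alignments and a control alignment, and the thresholded lists also from a further annotation file. No source used here names the aligner, the peak caller or the scale of the signal. The deposited signal of a peak is the authors' own value and served only for description and ranking inside its list. The deposited score is scaled from the IDR, up to 1000, and the authors' q-values and IDR are deposited as −log10 values. All peaks of each thresholded list were found in its ranked list. The lists hold no read counts, so depth is unknown and intervals were not computed.

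Transcript starts came from Ensembl release 115 (WBcel235) and bases and product names from RefSeq WBcel235. Summits are the peak start plus the summit column. Where several genes had a start in range, all were credited with the peak. Windows of 70 bases each side of a summit were searched for 9 words on both strands. Identity of coding sequences is from global alignment (Biopython 1.88; Python 3.11.15, pandas 2.3.3). Assignment to starts was tested on simulated data.

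The members, gene lists and words were chosen with earlier results of these data known. Named are the members, listed genes with a thresholded peak, genes sharing a member's peak, and for each member with a conservative peak the 2 genes most alike. Alternatives were the lists, the replicates, the window, the assignment and the IDR.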

Additional observations from a re-analysis of the deposited data

How the results depend on the processing

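The count of 4 members with a conservative peak is given here with the share of all protein-coding genes. It was 5 under the second thresholded list (2.27%) and at an IDR of at most 0.05 (4.13%). It stayed at 4 with a window of 2000 bp (3.13%) and with any base of the peak within 1000 bp (2.33%). It was 3 with a window of 500 bp (1.46%) and with the nearest protein-coding start only (1.55%). It fell to 1 at a window of 200 bp (hsp-3) and to 2 at an IDR of at most 0.001 (hsp-1 and hsp-3), where the share of all protein-coding genes was 0.696% and 0.701%, against 2.17% in the main setting. Leaving out a replicate gave 2 to 3 members: without replicate 1, hsp-1 and hsp-3, and without replicate 2, hsp-90 as well. The count of 11 other chaperone genes was 5 with the nearest protein-coding start only and 18 at an IDR of at most 0.05, where the share of all genes was 1.55% and 4.13%. It was 5 to 8 without 1 replicate, at shares of 0.936% and 0.981%. The median over the members of the percentile of their highest signal was 99.55 in the ranked list, 77.3 when the nearest summit stood for a gene, and 98.7 to 99.4 without 1 replicate. The stricter settings also admit fewer peaks or starts over all genes, and no cause of the lower counts was tested. hsp-60 left the count at 500 bp and with nearest starts only, where its peak went to Y22D7AL.10. The upstream hsp-90 summit was likewise nearer to C47E8.4 (328 bp) than to hsp-90 (347 bp). With nearest starts hsp-90 therefore stayed in the count through its coding site. For single members the percentile moved by more than the standard deviation of the 2 replicate values in 14 of 36 values. These include the settings without 1 replicate, whose value is itself 1 of the 2 replicate values, so the count is in part circular. The percentile was lowest at hsp-90 (23.8) with the nearest summit. No paired analysis was possible because there is 1 group and no second condition.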
